A study of Sus scrofa with 8 samples.

Results

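The genes described here are 10 immediate early genes of pig (Sus scrofa) right ventricle: the AP-1 subunits FOS, FOSB, FOSL2, JUN, JUNB and JUND, the related factor ATF3, the zinc finger factor EGR1, and the immediate early response genes IER2 and IER3. They were taken by gene name, and each of the 10 names had 1 row among the 30550 genes of the deposited table. The libraries compared are 4 from pigs with a heterozygous knockout of PKP2 (PKP2_het) and 4 from wild-type pigs (WT). PKP2 encodes plakophilin 2 of the cardiac desmosome, and the series presents the knockout as a model of arrhythmogenic cardiomyopathy. The labels name no agent, and they state neither the age nor the sex of the animals, nor whether each library is a separate animal. The p-values therefore measure the spread between these libraries.

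Immediate early genes are transcribed within minutes of a stimulus, such as a growth factor, stretch, adrenergic drive or injury, from factors that are already present in the cell. MAP kinases switch them on through serum response factor and its ETS-domain partners, and through CREB. FOS-family proteins need a JUN-family partner to bind DNA as AP-1, whereas JUN proteins can also pair with each other. In heart muscle these genes are known for their fast response to stretch and pressure load.

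The libraries held between 23637697 and 31313628 fragments in genes. PKP2 itself had 45.4, 40.7, 24.6 and 45.9 FPKM (fragments scaled by gene length and by the depositors' library factors) in PKP2_het replicates 1 to 4. In WT replicates 1 to 4 it had 52.9, 62.2, 61.1 and 72.8 FPKM, so the groups did not overlap and PKP2 was lower in the libraries labelled as its knockout (limma adjusted p = 0.164). PKP2_het replicate 3 stood apart from all other libraries on the first principal component, at 47.8 against -16.5 to 3.74, and mitochondrially encoded genes took 52.1% of its fragments. In WT replicate 1 that share was 37.6%, and in the other 6 libraries 21.1% to 33.4%. The labels name cardiomyocytes, while the protocol describes tissue. The heart muscle gene MYL3 averaged 8156 FPKM in PKP2_het and 7658 FPKM in WT, and MYL2 7928 FPKM in PKP2_het and 6611 FPKM in WT. Of 9 heart muscle markers, 6 had a higher and 3 a lower mean in PKP2_het. The endothelial gene PECAM1 averaged 81.7 FPKM in PKP2_het and 99.8 FPKM in WT, and VWF 74.7 FPKM in PKP2_het and 89.4 FPKM in WT. Of 8 endothelial markers, 7 had a lower mean in PKP2_het. The fibroblast gene DCN averaged 169 FPKM in PKP2_het and 128 FPKM in WT, and COL3A1 66.7 FPKM in PKP2_het and 72.5 FPKM in WT. Of 7 fibroblast markers, 4 had a higher and 3 a lower mean in PKP2_het. In such bulk samples, fewer cells of a type and less RNA per cell cannot be told apart.

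Of the 10 genes, 1 was called higher in PKP2_het tissue, IER3, and 0 were called lower. Groups were compared with limma on log2(FPKM + 1), with Benjamini-Hochberg adjustment over 10757 genes and a threshold of 0.05. In that fit 1.15% of all tested genes were called higher and 0.707% lower. FOSB did not pass the filter of at least 1 FPKM in at least 4 libraries, which it reached in 3, so 9 of the 10 genes were tested. Of these 9, 2 had an unadjusted limma p under 0.05, JUND and IER3, both higher in PKP2_het. Over all tested genes that share was 12.8%. The log2 fold change was positive for 8 of the 9 and negative for EGR1, beside 45.7% positive over all tested genes. Most of the genes shared an order of libraries described below, so the 8 signs are not separate results. The median was 0.24, beside a median of -0.022 over all tested genes. JUND and IER3 were also the 2 genes of the 10 with no overlap between the groups, both higher in PKP2_het, as was seen for 4.86% of tested genes; 4.33% of tested genes had no overlap with PKP2_het lower.

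**Figure D1:**
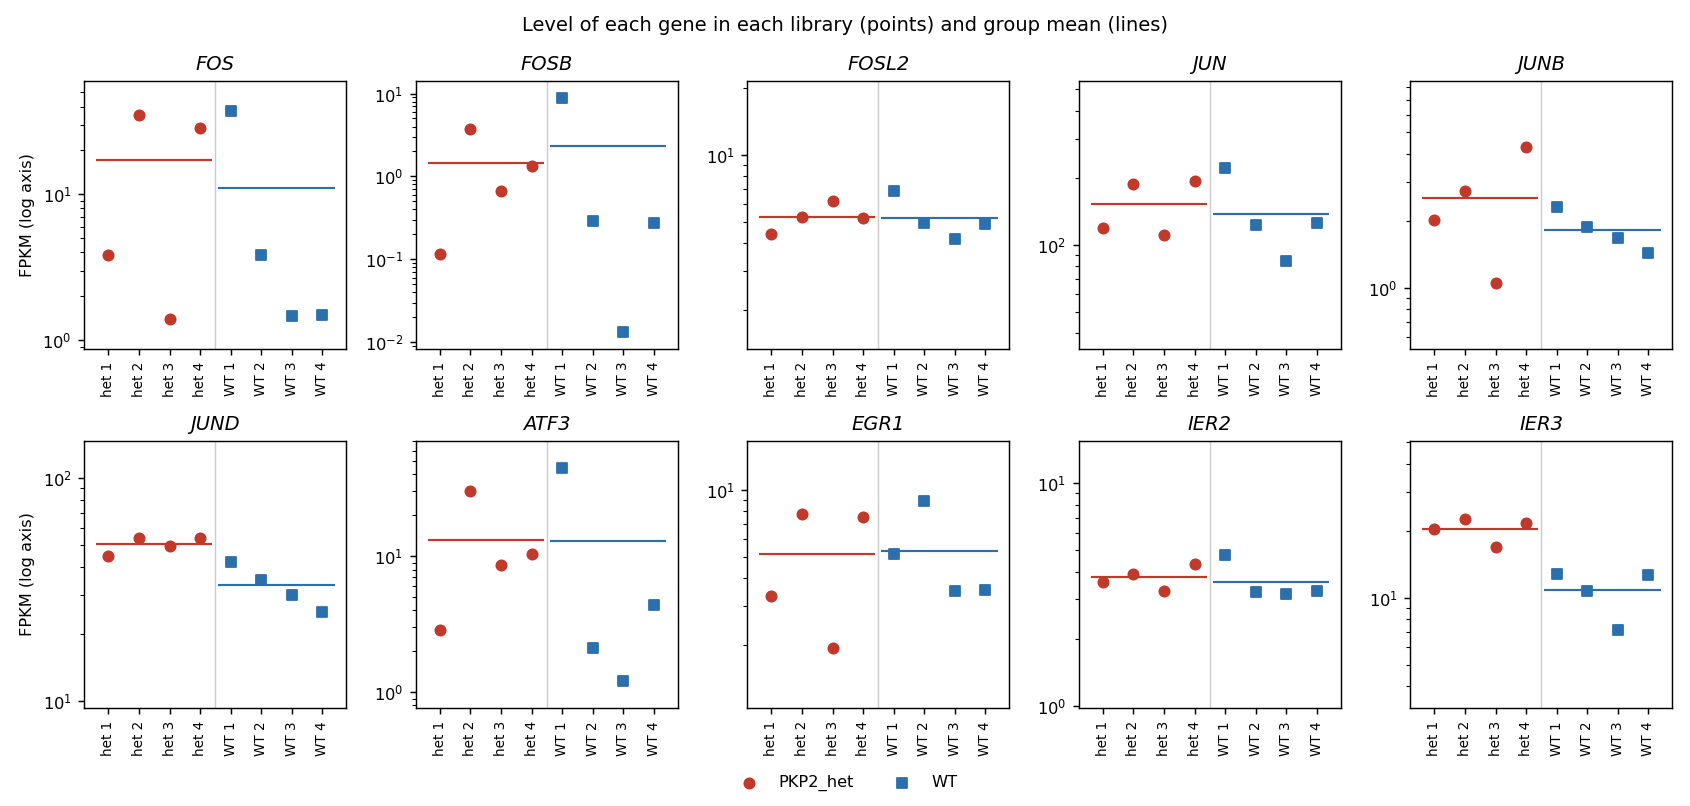
FPKM of the 10 genes (log axis) in each library, with PKP2_het replicates as red circles, WT replicates as blue squares and lines at the group means. FOS, FOSB, JUN, JUNB, ATF3 and IER2 have their 3 highest values in PKP2_het replicates 2 and 4 and WT replicate 1. JUND and IER3 have no overlap between the groups.

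FOS, the classic inducible partner of JUN, was at 3.84, 35.1, 1.39 and 28.6 FPKM in PKP2_het replicates 1 to 4, and at 37.4, 3.84, 1.46 and 1.49 FPKM in WT replicates 1 to 4. The high libraries thus lay between 28.6 and 37.4 FPKM and the other 5 at or under 3.84 FPKM, and the high ones came from both groups. The means were 17.2 ± 17.1 FPKM in PKP2_het tissue and 11.05 ± 17.6 FPKM in WT tissue (SD, n = 4). That gave a log2 fold change of 0.86 ± 1.07 (SE) and a limma adjusted p of 0.756. The highest FOS library was 26.9-fold above the lowest. FOS lies on chromosome 7 (98449508 to 98451971, plus strand, Sscrofa11.1, as do all positions given here), and its gene model counts 1143 of these 2464 bases.

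FOSB, a FOS paralogue induced by the same stimuli, had 0.114, 3.70, 0.667 and 1.35 FPKM in PKP2_het replicates 1 to 4. In WT replicates 1 to 4 it had 8.84, 0.289, 0.0133 and 0.273 FPKM. The lowest of these rests on 2 fragments and the highest on 896. As for FOS, the 3 highest libraries were WT replicate 1 and PKP2_het replicates 2 and 4, so the groups overlapped. An exact permutation test over the 70 relabellings of the libraries gave p = 0.943 (two-sided). Fitted without the filter, FOSB had a log2 fold change of 0.08 ± 0.77 (SE) and a limma adjusted p of 0.972. The gene is on chromosome 6 (51836780 to 51844531, plus strand).

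FOSL2, which encodes FRA2, the FOS-family protein known for slower and longer expression, varied little. It was at 4.43, 5.28, 6.201 and 5.23 FPKM in PKP2_het replicates 1 to 4, and at 6.87, 4.95, 4.20 and 4.87 FPKM in WT replicates 1 to 4. Its highest library was 1.64-fold above its lowest, and the group means were 5.29 ± 0.724 FPKM in PKP2_het tissue and 5.22 ± 1.15 FPKM in WT tissue (SD, n = 4). Between the groups the log2 fold change was 0.02 ± 0.14 (SE; limma adjusted p = 0.957), and it was -0.04 without PKP2_het replicate 3 and -0.20 with equal FPKM sums. FOSL2 is on chromosome 3 (110820403 to 110842903, minus strand).

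JUN, the main activating JUN protein, was the most abundant of the 10 genes. Its levels were 119, 188, 111 and 193 FPKM in PKP2_het replicates 1 to 4, and 220.2, 122, 84.1 and 125 FPKM in WT replicates 1 to 4. PKP2_het replicates 2 and 4 and WT replicate 1 were again the 3 highest, here 188 to 220.2 FPKM against 84.1 to 125 FPKM in the other 5 libraries. Its log2 fold change was 0.19 ± 0.30 (SE; limma adjusted p = 0.806), and the sign turned with scaling to equal FPKM sums, at -0.08, and without WT replicate 3, at -0.017. The JUN model, on chromosome 6 (153686425 to 153687635, plus strand), counts its whole span of 1211 bases.

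JUNB, a JUN protein that can restrain JUN activity, was at 2.01, 2.73, 1.05 and 4.31 FPKM in PKP2_het replicates 1 to 4. In WT replicates 1 to 4 it was at 2.31, 1.87, 1.68 and 1.44 FPKM. The PKP2_het libraries held both the highest and the lowest value, and the WT values lay between them. JUNB had a log2 fold change of 0.24 ± 0.25 (SE) and a limma adjusted p of 0.714. Its model on chromosome 2 (66214086 to 66219435, minus strand) counts the whole span of 5350 bases, against 1211 for JUN and 1854 for JUND, and FPKM divides by that length.

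JUND, the JUN protein that is expressed steadily in many tissues, was at 45.0, 54.2, 49.5 and 54.0 FPKM in PKP2_het replicates 1 to 4. It was at 42.1, 35.0, 29.99 and 25.2 FPKM in WT replicates 1 to 4. The lowest PKP2_het library lay above the highest WT library, by a narrow margin. The means were 50.7 ± 4.38 FPKM in PKP2_het tissue and 33.1 ± 7.24 FPKM in WT tissue (SD, n = 4), a ratio of 1.53. JUND had a log2 fold change of 0.62 ± 0.16 (SE) and a limma adjusted p of 0.104, and so was not called. An exact permutation test, run on each of the 10 genes, gave p = 0.0286, and with 70 relabellings no smaller p is possible. JUND was called in 1 of 19 other settings, with library quality weights (adjusted p = 0.0182), and its adjusted p in the rest reached 0.732. It is on chromosome 2 (59530991 to 59532846, plus strand).

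ATF3, a stress-induced factor of the ATF family that pairs with JUN proteins, spread about as widely as FOS. It was at 2.85, 30.4, 8.70 and 10.3 FPKM in PKP2_het replicates 1 to 4, and at 44.4, 2.13, 1.22 and 4.35 FPKM in WT replicates 1 to 4. WT replicate 1 was highest, followed by PKP2_het replicate 2, and the groups overlapped across most of the range. The group means, 13.08 ± 11.999 FPKM in PKP2_het tissue and 13.01 ± 20.9 FPKM in WT tissue (SD, n = 4), were nearly the same. The medians were 9.52 FPKM in PKP2_het and 3.24 FPKM in WT, and the log2 fold change was 0.75 ± 0.92 (SE; limma adjusted p = 0.755). ATF3 is on chromosome 9 (130772259 to 130829678, minus strand).

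EGR1, a zinc finger factor that serum response factor also induces, was at 3.32, 7.79, 1.94 and 7.495 FPKM in PKP2_het replicates 1 to 4. In WT replicates 1 to 4 it was at 5.15, 8.91, 3.499 and 3.53 FPKM. Here WT replicate 2 was the highest library, unlike in any other of the 10 genes. EGR1 had a log2 fold change of -0.10 ± 0.38 (SE; limma adjusted p = 0.934), and of 0.21 without PKP2_het replicate 3, its lowest library. The gene is on chromosome 2 (140440829 to 140445302, plus strand). The other EGR genes did not pass the filter. EGR2 averaged 0.173 FPKM in PKP2_het and 0.269 FPKM in WT, EGR3 0.0803 FPKM in PKP2_het and 0.148 FPKM in WT, and EGR4 was listed at 0 in all 8 libraries.

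IER2, a small nuclear immediate early protein, differed little between libraries. It was at 3.61, 3.90, 3.27 and 4.34 FPKM in PKP2_het replicates 1 to 4, and at 4.75, 3.24, 3.17 and 3.26 FPKM in WT replicates 1 to 4. The same 3 libraries as for FOS were the highest, and the highest was 1.498-fold above the lowest. IER2 had a log2 fold change of 0.06 ± 0.13 (SE; limma adjusted p = 0.859), and of -0.13 with equal FPKM sums. It is on chromosome 2 (65909638 to 65912491, minus strand).

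IER3, also called IEX-1, encodes a short-lived protein known to modulate cell survival and ERK signalling. It rose in PKP2_het tissue. The libraries were at 20.4, 22.6, 17.0 and 21.8 FPKM in PKP2_het replicates 1 to 4, and at 12.8, 10.8, 7.17 and 12.7 FPKM in WT replicates 1 to 4. The PKP2_het libraries were all above the WT libraries, with the lowest at 17.0 FPKM and the highest WT library at 12.8 FPKM. The means were 20.5 ± 2.499 FPKM in PKP2_het tissue and 10.9 ± 2.63 FPKM in WT tissue (SD, n = 4), a ratio of 1.88. IER3 thus had a log2 fold change of 0.88 ± 0.18 (SE), a limma adjusted p of 0.0400 and an exact permutation p of 0.0286. The call was lost in 9 of 19 other settings, with adjusted p between 0.0568 and 0.732. It was lost when PKP2_het replicate 1 (adjusted p = 0.109), 2 (0.116) or 4 (0.106) was left out, or WT replicate 1 (0.0568), 2 (0.112) or 4 (0.0681). Without PKP2_het replicate 3 it was kept, at 0.0254, and without WT replicate 3 at 0.0479.

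**Figure D2:**
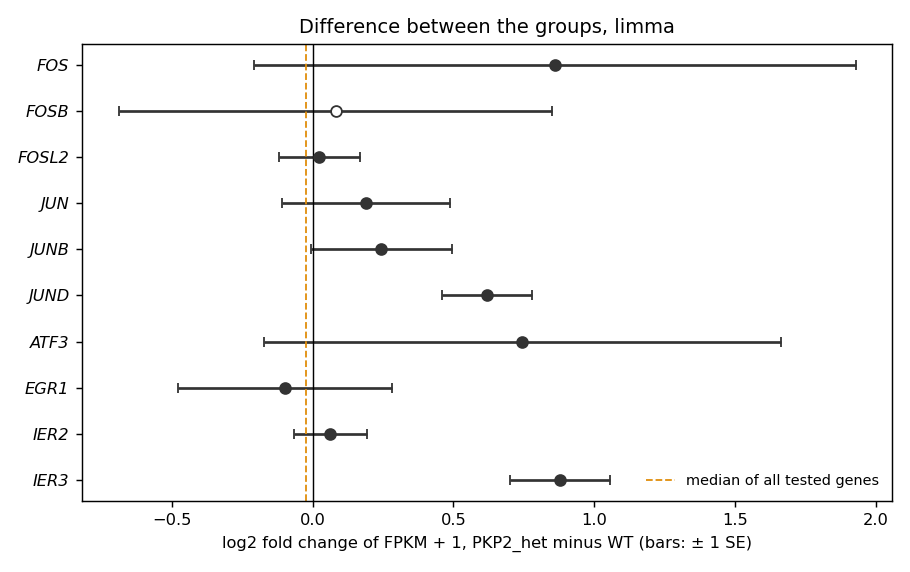
Log2 fold change of FPKM + 1 (PKP2_het minus WT) for each gene, with bars of 1 standard error from limma and a dashed line at the median of all tested genes. FOSB, drawn open, comes from the fit without the filter; FOS and ATF3 have the widest bars, and JUND and IER3 lie at 0.62 and 0.88.

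**Figure D3:**
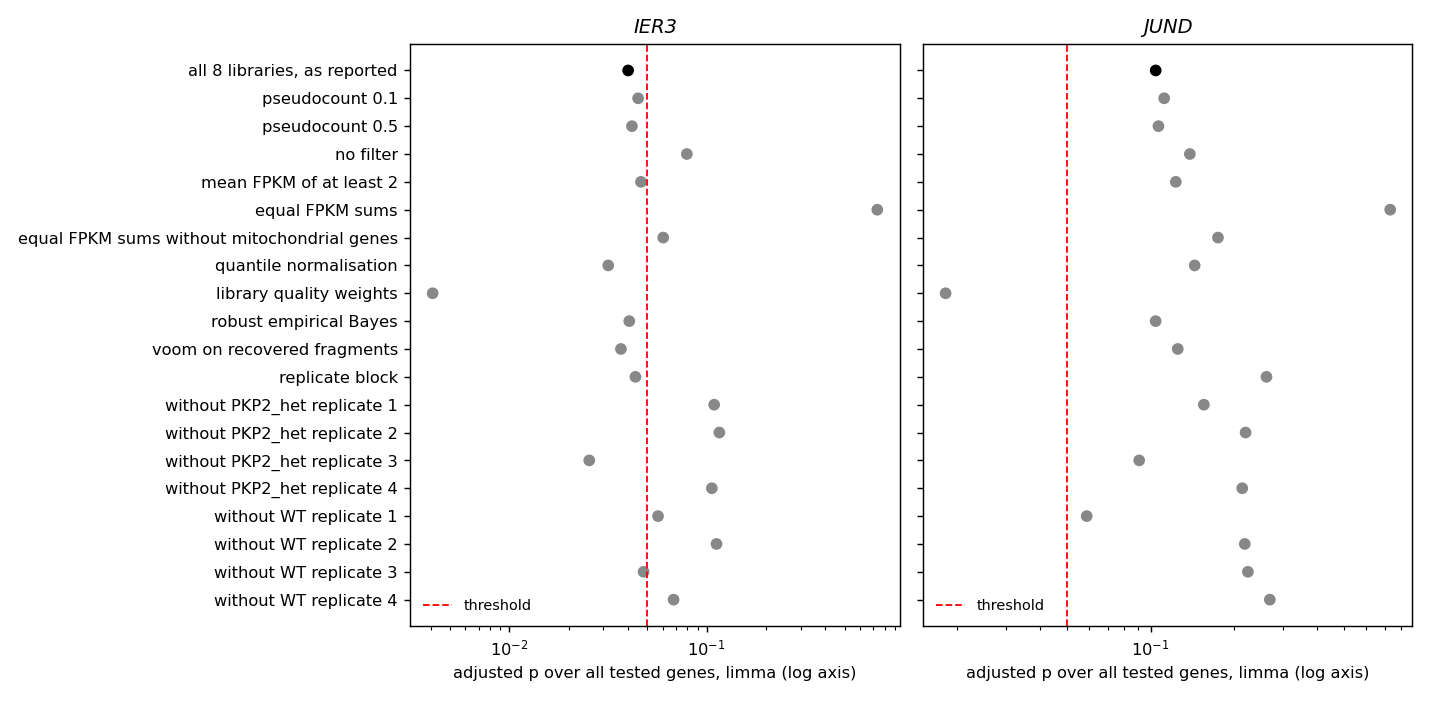
Limma adjusted p (log axis) of IER3 and JUND in the reported fit (black) and in 19 other settings (grey), with the threshold of 0.05 dashed. IER3 lies above the threshold in 9 of the 19 settings, and JUND lies under it in 1.

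IER3 is on chromosome 7 (23265560 to 23266905, minus strand), and the nearest end of the FLOT1 model is 0.395 kb from it. No other gene of the table overlaps any of the 10. Litter and ancestry are not in the labels, and the effect of genetic background cannot be told apart from that of the knockout. The genes around IER3 were looked at after its values had been seen. Of 18 other tested genes within 250 kb, 0 were called by limma and 1 had an unadjusted p under 0.05, C7H6orf136, with a log2 fold change of 0.37 and an adjusted p of 0.103. The 18 log2 fold changes ran from -0.29 to 0.37. FLOT1, which encodes a membrane raft protein, averaged 58.6 ± 4.52 FPKM in PKP2_het tissue and 57.2 ± 9.16 FPKM in WT tissue (SD, n = 4).

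Summed T and NK cell markers separated the groups, as IER3 and JUND did, but in the opposite direction, and of the 3 of these markers tested 1 was called, GNLY. All 6 markers had a lower mean in PKP2_het. Their summed level was 1.83 to 5.50 FPKM in PKP2_het and 10.1 to 11.9 FPKM in WT, with no marker at 0 in any library. Most of that gap was GNLY, a cytolytic protein, at 0.641 FPKM on average in PKP2_het and 6.56 FPKM in WT. Without it the sums were 1.68 to 4.57 FPKM in PKP2_het and 4.28 to 5.48 FPKM in WT, which overlap. The sums of 5 B and plasma cell markers also overlapped, at 2.88 to 3.53 FPKM in PKP2_het and 3.20 to 4.02 FPKM in WT. The 5 neutrophil and mast cell markers summed to 0.480 to 1.16 FPKM in PKP2_het and 1.40 to 3.39 FPKM in WT, with no overlap. All 5 had a lower mean in PKP2_het, and 0 of them passed the filter. The mast cell gene CPA3 was at 0 in all 4 PKP2_het libraries and in 3 WT libraries. The sums of 7 macrophage markers overlapped, at 15.5 to 41.6 FPKM in PKP2_het and 27.7 to 36.8 FPKM in WT, though all 7 had a lower mean in PKP2_het. The part of these cells in the IER3 and JUND values was not tested. Summed heart muscle markers overlapped, at 24574 to 33911 FPKM in PKP2_het and 25722 to 29015 FPKM in WT. The sums of 7 smooth muscle and pericyte markers overlapped too, at 222 to 408 FPKM in PKP2_het and 238 to 407 FPKM in WT. Those of 6 skeletal muscle markers also overlapped, at 9398 to 11148 FPKM in PKP2_het and 7910 to 11286 FPKM in WT. Nearly all of the skeletal muscle sum was ACTA1 and CKM, so the overlap describes those genes. ACTA1 averaged 5893 FPKM in PKP2_het and 5399 FPKM in WT, and CKM 4272.5 FPKM in PKP2_het and 4416.6 FPKM in WT. In the smooth muscle list and in the skeletal muscle list 1 gene each was called, with no overlap between the groups. Both are named here after their values were seen. LMOD1, a smooth muscle actin-binding protein, rose to 7.32 ± 0.316 FPKM in PKP2_het tissue, against 4.63 ± 0.747 FPKM in WT tissue, with a limma adjusted p of 0.0346 (SD, n = 4). MYL1, a fast skeletal muscle myosin light chain, fell to 1.86 ± 0.894 FPKM in PKP2_het tissue, against 27.0 ± 21.5 FPKM in WT tissue, with a limma adjusted p of 0.0328 (SD, n = 4). The part of these genes' cells in the IER3 and JUND values was not tested either.

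Differences between libraries of the same group followed 1 pattern in most of the genes. In 9 of the 10 genes, all but FOSL2, both PKP2_het replicates 2 and 4 were above both replicates 1 and 3. This order held in 18.9% of all tested genes. In 9 of the 10, all but EGR1, WT replicate 1 was the highest WT library, as in 29.99% of tested genes. Both held in 8 of the 10 and in 2.99% of tested genes. These orders were chosen for counting after the values had been seen. They also held for IER3 and JUND, so the difference between the groups and the order within them appeared together in those 2 genes. For IER3 the order within WT rested on a small margin, 12.8 FPKM in WT replicate 1 against 12.7 FPKM in WT replicate 4. WT replicate 1 was the highest of all 8 libraries for 6 of the genes and WT replicate 3 the lowest for 6.

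**Figure D4:**
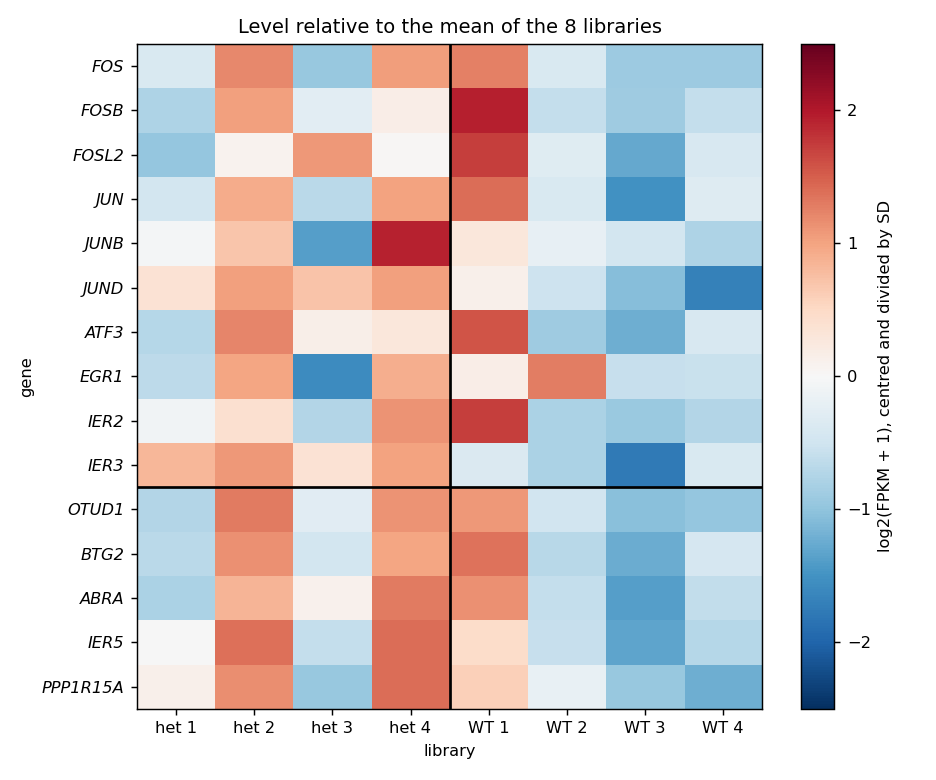
Log2(FPKM + 1) of the 10 genes (above the line) and of the 5 other genes most like their mean profile (below it), centred and divided by the SD over the 8 libraries, with PKP2_het libraries left and WT libraries right. PKP2_het replicates 2 and 4 and WT replicate 1 are red in most rows, and WT replicate 3 is blue in most.

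Several other quantities stood out in WT replicate 1, and their part in the pattern was not tested. On the first principal component WT replicate 1 lay at -1.23, against -16.5 to -14.5 in the other WT libraries and -1.54 to 47.8 in PKP2_het. WT replicate 1 had the fewest fragments, 23637697, and the highest summed endothelial markers, 465 FPKM, against 235 to 368 FPKM in the other WT libraries. Its adipocyte markers summed to 179 FPKM, against 11.4 to 123 FPKM in the other WT libraries. Nearly all of that sum was FABP4, with 176 FPKM in WT replicate 1, 115 in replicate 2, 9.58 in replicate 3 and 116 in replicate 4. CIDEC, the next most abundant, had 1.78 FPKM in WT replicate 1 and 2.38 FPKM in WT replicate 2. No adipocyte marker but FABP4 was highest in WT replicate 1, so the high sum describes that gene. In PKP2_het replicates 2 and 4 the endothelial markers summed to 239 and 305 FPKM, between the other PKP2_het libraries at 196 and 385 FPKM. Their adipocyte markers summed to 19.7 and 65.8 FPKM, between the other PKP2_het libraries at 17.3 and 94.8 FPKM. Their mitochondrial shares were 21.1% and 33.4%, against 25.7% in replicate 1 and 52.1% in replicate 3. Summed heat shock genes, which respond to protein damage, were at 2059 to 2539 FPKM in PKP2_het and 2209 to 2849 FPKM in WT. WT replicate 1 had the highest sum of all 8 libraries, 2849 FPKM, against 2209 to 2510 FPKM in the other WT libraries. That height rested mainly on HSPB1, at 1634 FPKM in WT replicate 1 and 1025 to 1228 FPKM in the other WT libraries. HSP90AA1 was lowest of WT in WT replicate 1, at 248 FPKM against 255 to 286 FPKM, so the high sum does not describe the whole list. Of 12 heat shock genes tested, limma called 0, with 0 at an unadjusted p under 0.05.

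The 5 tested genes with the highest Pearson r to the mean profile of the 9 tested members, over the 8 libraries, were OTUD1 (r = 0.97), BTG2 (0.96), ABRA (0.95), IER5 (0.95) and PPP1R15A (0.92). OTUD1 encodes a deubiquitinase. BTG2 is an antiproliferative immediate early gene, ABRA an actin-binding activator of serum response factor in striated muscle, IER5 an immediate early gene and PPP1R15A a stress-induced phosphatase subunit. OTUD1 was at 5.79, 37.4, 8.97 and 31.7 FPKM in PKP2_het replicates 1 to 4, and at 31.0, 7.38, 4.26 and 4.56 FPKM in WT replicates 1 to 4. ABRA was at 31.1, 89.7, 55.8 and 120.2 FPKM in PKP2_het replicates 1 to 4, and at 109.0, 35.6, 21.1 and 35.2 FPKM in WT replicates 1 to 4. Both therefore repeat the high libraries of FOS across the groups, and limma called neither, with adjusted p of 0.646 for OTUD1 and 0.642 for ABRA. Their likeness is a description over 8 libraries that share their depth and scaling.

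For EGR1 alone the most similar genes were ZMIZ2, RBPMS2, VPS26B, ARHGAP36 and ATF7, with r of 0.93 to 0.96. For IER3 they were SPECC1, COG6, PEX19, MRPL3 and FASTK, with r of 0.96 to 0.97. MRPL3, a mitochondrial ribosomal protein, was at 26.1 to 39.1 FPKM in PKP2_het and 17.6 to 24.7 FPKM in WT (limma adjusted p = 0.0872). Neither set shares a gene with the 5 above.

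EGR1 was followed across the 8 libraries against the other genes in 9 correlations of log2(FPKM + 1). For FOS the libraries formed a high and a low set, so no r is given for it, only Spearman rho. The libraries high in FOS were also the highest for JUN, so the r of JUN carries the same limit. After Benjamini-Hochberg adjustment over the 9, 0 passed 0.05 by Pearson or Spearman. FOS had rho = 0.57 (exact permutation p = 0.151, adjusted 0.453). One Pearson correlation had an unadjusted exact permutation p under 0.05, that with JUNB, at r = 0.73 (exact p = 0.0335, adjusted 0.302) and Spearman rho = 0.60 (exact p = 0.132, adjusted 0.453). Without WT replicate 2 and PKP2_het replicate 3, the 2 libraries farthest from the EGR1 median, r was 0.85. Without PKP2_het replicate 3 alone it was 0.58 (exact p = 0.161, adjusted 0.459). On deviations from the group means, r with JUNB was 0.80 (exact p = 0.0115, adjusted 0.103). On the same deviations, rho with FOS was 0.79 (exact p = 0.0279, adjusted 0.251). For JUN, r was 0.57 (exact p = 0.145, adjusted 0.435) and rho 0.60 (exact p = 0.132, adjusted 0.453), and r was 0.79 without those 2 libraries and 0.53 without PKP2_het replicate 3 alone. The labels name no batch within which to repeat these.

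Ordered by mean level over the 8 libraries, the genes ran from JUN at 145 FPKM through JUND (41.9), IER3 (15.7), FOS (14.1), ATF3 (13.05), FOSL2 (5.26), EGR1 (5.20), IER2 (3.69) and JUNB (2.18) to FOSB at 1.91 FPKM. JUN was above JUND, and JUND above IER3, in 8 of 8 libraries, and IER2 was above JUNB in 8 of 8. FOS and ATF3 could not be placed beyond their spread: IER3 was above FOS in 5 of 8 libraries, FOS above ATF3 in 5 and ATF3 above FOSL2 in 4. IER3 was above FOSL2 in 8 of 8. FOSL2 stood above EGR1 in 5 of 8, EGR1 above IER2 in 6 of 8 and JUNB above FOSB in 6 of 8. The lengths that FPKM divides by run from 1143 bases for FOS to 7476 bases for FOSL2.

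**Figure D5:**
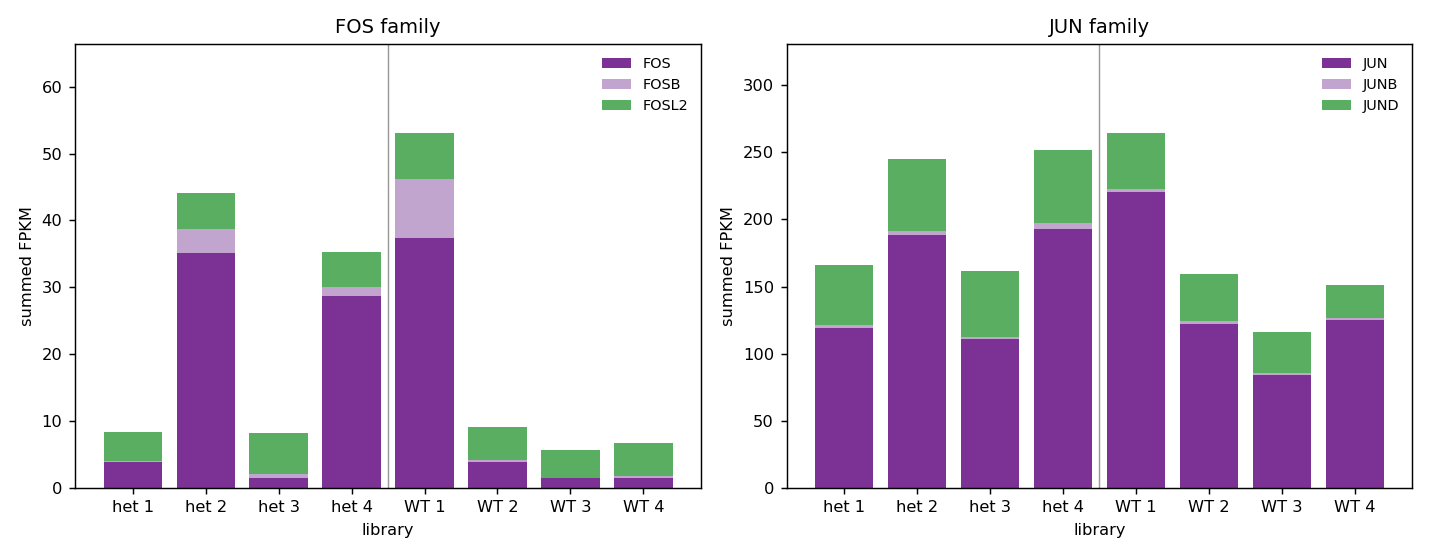
Summed FPKM of the FOS family (left) and the JUN family (right) in each library, stacked by gene, with PKP2_het libraries left of WT libraries. The FOS sum ranges from 5.67 to 53.1 FPKM and follows FOS, while the JUN sum ranges from 116 to 265 FPKM.

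The make-up of the FOS family changed with the library. The summed level of FOS, FOSB and FOSL2 was 8.39, 44.0, 8.26 and 35.2 FPKM in PKP2_het replicates 1 to 4, and 53.1, 9.08, 5.67 and 6.63 FPKM in WT replicates 1 to 4. FOS made up 45.8%, 79.6%, 16.9% and 81.3% of that sum in PKP2_het replicates 1 to 4, and 70.4%, 42.3%, 25.7% and 22.5% in WT replicates 1 to 4. FOSL2 was the largest part in the 5 libraries with low FOS, with 52.8% to 75.1% of the sum, and had 12.0% to 14.8% in the other 3. The fourth member, FOSL1, was at most 0.178 FPKM.

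The JUN family kept its order in every library: JUN was largest, JUND next and JUNB smallest. JUND made up 25.3% ± 4.35 of the sum of the 3 genes in PKP2_het and 20.1% ± 4.73 in WT (SD, n = 4), with overlap between the groups. JUN made up 73.5% ± 4.003 in PKP2_het and 78.8% ± 4.98 in WT. The summed level was 162 to 251 FPKM in PKP2_het and 116 to 265 FPKM in WT.

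Other genes of the response gave few calls, and the counts of unadjusted p under 0.05 below stand beside 12.8% of all tested genes. Of 34 other immediate early genes tested, limma called 0, with 6 at an unadjusted p under 0.05 and a median log2 fold change of 0.15, beside -0.022 over all tested genes and 1.86% of all tested genes called in either direction. DUSP1, the phosphatase that turns MAP kinases off, had the smallest p, at 50.2, 69.8, 35.1 and 99.5 FPKM in PKP2_het replicates 1 to 4 and 39.3, 35.0, 21.1 and 20.5 FPKM in WT replicates 1 to 4. Only the lowest PKP2_het library lay within the WT range. Its log2 fold change was 1.063 ± 0.32 (SE; limma adjusted p = 0.178), and without PKP2_het replicate 3 it was 1.31 (adjusted p = 0.0514). NR4A3, an inducible orphan nuclear receptor, averaged 10.1 ± 4.98 FPKM in PKP2_het tissue and 3.998 ± 5.18 FPKM in WT tissue, and the matricellular gene CTGF 28.7 ± 7.98 FPKM in PKP2_het tissue and 16.6 ± 10.1 FPKM in WT tissue (SD, n = 4). Their limma adjusted p-values were 0.327 and 0.310. DUSP2, at 0.706 ± 0.292 FPKM in PKP2_het tissue and 1.12 ± 0.0709 FPKM in WT tissue, had a negative log2 fold change of -0.33 (adjusted p = 0.294). WT replicate 1 was the highest WT library in 29 of these 34 genes, and PKP2_het replicates 2 and 4 led their group in 11.

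Among partner factors of the AP-1 and CREB families, limma called 0 of 19, with 3 at an unadjusted p under 0.05. DDIT3 (CHOP), a stress-induced C/EBP factor, averaged 13.3 ± 0.700 FPKM in PKP2_het tissue and 9.37 ± 1.52 FPKM in WT tissue (SD, n = 4; adjusted p = 0.0964). The small MAF factor MAFF and the cAMP-responsive CREM had log2 fold changes of 0.40 and 0.45, with adjusted p of 0.218 and 0.354. ATF5 was at 0.19 (adjusted p = 0.407).

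Upstream of these genes, limma called 0 of 10 genes of serum response factor, its partners and MEF2, with 0 at an unadjusted p under 0.05. SRF itself averaged 20.4 ± 6.53 FPKM in PKP2_het tissue and 22.6 ± 1.97 FPKM in WT tissue (SD, n = 4; adjusted p = 0.734). The ETS-domain partners ELK4 and ELK3 had log2 fold changes of -0.22 and -0.28 (adjusted p = 0.431 and 0.484) and MEF2A of -0.34 (0.714). Of 25 kinases of the MAP kinase cascades, limma called 0, with 3 at an unadjusted p under 0.05, a share near that of all tested genes (12.8%). MAPK12, the p38 gamma kinase of striated muscle, averaged 116 ± 16.6 FPKM in PKP2_het tissue and 74.4 ± 15.1 FPKM in WT tissue (SD, n = 4; adjusted p = 0.128). MAPKAPK3, a p38 substrate kinase, averaged 12.6 ± 2.96 FPKM in PKP2_het tissue and 18.4 ± 1.63 FPKM in WT tissue (SD, n = 4; adjusted p = 0.199). MAP3K5, a stress-activated kinase also called ASK1, had a log2 fold change of -0.45 (adjusted p = 0.315), and MAPK7, or ERK5, of -0.21 (0.519). The kinase list had 20 negative log2 fold changes and a median of -0.10, which was 0.014 without PKP2_het replicate 3.

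Among 19 feedback inhibitors, some of which are immediate early genes counted above, limma called 0, with 2 at an unadjusted p under 0.05. These were DUSP1 and DUSP2. TRIB1 and SPRED2, which dampen MAP kinase signalling, had log2 fold changes of 0.43 and -0.17, with adjusted p of 0.4696 and 0.554. Over all tested genes, 1.86% were called in either direction, 0.707% were called lower and 12.8% had an unadjusted p under 0.05. Of 17 genes known as AP-1 or EGR1 targets, 4 had an unadjusted limma p under 0.05 and 1 was called. This was HMOX1, a haem oxygenase, which fell to 1.33 ± 0.212 FPKM in PKP2_het, against 2.74 ± 0.303 FPKM in WT tissue, with a limma adjusted p of 0.00826 (SD, n = 4). CDKN1A, the cell cycle inhibitor p21, averaged 2.52 ± 0.673 FPKM in PKP2_het tissue and 0.990 ± 0.421 FPKM in WT tissue (SD, n = 4), with an adjusted p of 0.0595. Without PKP2_het replicate 3 both were called, CDKN1A at an adjusted p of 0.0195. The urokinase gene PLAU and its receptor gene PLAUR had log2 fold changes of 0.41 and 0.32, with adjusted p of 0.214 and 0.371. The median of this list was 0.0097.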

How the data were processed

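RNA from right ventricle was sequenced in 8 libraries, whose titles give the group and replicate number. Per the submitters' processing notes, HISAT2 2.0.5 was the aligner. Which counter, annotation and build came next is not given in the sources used here. Values in the deposited table are FPKM. By position, 30335 of 30550 genes have the same start and end in RefSeq of Sscrofa11.1. FPKM times model length gave whole fragments for 100% of values, within 0.01, and the library factors in the deposited FPKM equal median-of-ratios factors over 15715 genes, so sums differ between libraries.

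Genes reaching 1 FPKM in 4 or more of 8 libraries were fitted as log2(FPKM + 1) with limma 3.58.1 in R 4.3.3 (variance trend, no replicate term, two-sided). Log2 fold changes include the pseudocount and understate changes of low genes. The fit was tested on simulated data. The members and lists were chosen with earlier results of these data known. Other genes named are up to 4 with the smallest p in each list and the 5 most like each profile. For heart muscle, endothelium, fibroblasts, adipocytes and skeletal muscle, the 2 markers with the highest level are named. For T and NK cells only the highest, GNLY, is named. Genes named after their values were seen are EGR2, EGR3, EGR4, FOSL1, FLOT1, C7H6orf136, CPA3, LMOD1, MYL1, HSPB1 and HSP90AA1. Other settings tried were a pseudocount of 0.1 or 0.5, other filters and scalings, library quality weights, robust variances, voom, a replicate block, and each library left out in turn. No label names a batch.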

Additional observations from a re-analysis of the deposited data

Results flagged for a closer look

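By Dixon's ratio at 95%, 6 of 48 sets of 4 libraries had 1 library far from the remaining 3; about 1 in 20 would by chance. In 5 of them the library was WT replicate 1. It had 37.4 FPKM of FOS against 1.46 to 3.84 FPKM in the other WT libraries, 8.84 FPKM of FOSB against 0.0133 to 0.289 FPKM, and 44.4 FPKM of ATF3 against 1.22 to 4.35 FPKM. For IER2 it had 4.75 FPKM against 3.17 to 3.26 FPKM, and for the FOS family sum, which contains FOS and FOSB, 53.1 FPKM against 5.67 to 9.08 FPKM. The last was PKP2_het replicate 1, whose neutrophil and mast cell markers summed to 0.480 FPKM, with PKP2_het replicates 2 to 4 at 1.10 to 1.16 FPKM.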

How the results depend on the processing

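The number of these genes called higher was 1 in the reported fit (IER3). It was 0 without the filter, 0 with libraries scaled to equal FPKM sums and 0 with equal sums leaving out mitochondrial genes, and it was 2 with library quality weights (JUND and IER3). Leaving out 1 library gave 0 to 1. The number called lower was 0 in all 19 settings. Over all tested genes, 124 were called higher and 76 lower; the counts were 81 higher with a mean of at least 2 FPKM, 50 higher and 45 lower with equal sums, and 367 and 292 with library weights. Leaving out 1 library gave 75 (without WT replicate 4) to 195 higher and 40 to 119 lower (195 and 119 without PKP2_het replicate 3). The count higher was 77 without WT replicate 2, and the count lower 42 without it, 44 without PKP2_het replicate 1, 49 without replicate 2 and 50 without replicate 4. PKP2 passed with library weights (log2 fold change -0.57, limma adjusted p = 0.0203) and in no other setting. The median of the tested members stayed positive, from 0.062 without PKP2_het replicate 4 to 0.50 with library weights. Scaling to equal sums moved the median of all genes to -0.23, and FOSL2 was then at -0.20, JUN at -0.077 and IER2 at -0.13. FOSL2 was at -0.038 with equal sums leaving out mitochondrial genes, and EGR1 at 0.18 with library weights. Leaving out 1 library gave -0.056 to 0.14 for FOSL2, -0.017 to 0.44 for JUN and -0.32 to 0.21 for EGR1. The r of EGR1 with FOSL2, -0.01 over all libraries, was 0.50 without the 2 libraries farthest from the EGR1 median and 0.38 without PKP2_het replicate 3, a setting added after seeing the data. The cause of these moves was not tested.

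The labels give no pairing of the libraries by replicate number. Same-numbered libraries correlated at -0.39 to 0.20 in their deviations from the group means, and 1 of 4 correlated best with its own number. So few correlations cannot settle whether any libraries were paired. With a replicate block the calls were 66 higher and 39 lower, and IER3 had a limma adjusted p of 0.0436. FOSB rests on 2 fragments in its lowest library, so its ratios there are uncertain.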
